A study of Mus musculus with 26 samples.

Results

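The genes described here set the supply of thyroid hormone in the retina and its nuclear response: the deiodinase genes Dio2 and Dio3, the thyroid hormone receptor genes Thra and Thrb, and Rxrg, which encodes retinoid X receptor gamma. They were taken by symbol from a table of 37991 genes, and each of the 5 symbols matched 1 Ensembl identifier. Where identifiers share a symbol the member was to be chosen by the highest mean count, but this measured value decided none of the 5, and the symbols themselves were picked with earlier results of these data known. The table holds read counts of 26 RNA-seq libraries from rd10 mice, which lose rods because of a mutation in the rod phosphodiesterase gene Pde6b. Mice of both sexes received intraperitoneal injections of an inhibitor of a chromatin-modifying enzyme from postnatal day (PN) 9, and tissue was collected at PN24. The question put to each experiment was how a treatment changed retinal transcription relative to the controls of the same experiment.

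All 26 libraries came from animals carrying the rd10 mutation, and no wild-type retina was included. The 22 whole-retina libraries were made from B6.CXB1-Pde6brd10/Jrd10 mice, a strain name that the labels of 2 experiments write with a rising last number. They compared DZNep, an EZH2 pathway inhibitor (2 treated and 4 control libraries), UNC1999, an EZH2 inhibitor (3 and 3), UNC0642, an inhibitor of the histone methyltransferases EHMT1 and EHMT2 (2 and 2), and Romidepsin, a histone deacetylase inhibitor (3 and 3). The remaining experiment used the LSD1 inhibitor GSK2879552 (GSK) in rods sorted by EGFP fluorescence (2 and 2 libraries) from a cross of rd10 with B6.Cg-Tg(Nrl-EGFP)1Asw/J, in which the Nrl promoter drives EGFP in rods. Controls were saline-injected according to the labels, while the methods of the study name a DMSO-containing diluent for UNC1999. The labels give daily injections, whereas the text of the study describes a sparser schedule for the later DZNep injections. The titles number the libraries as biological replicates without naming the animals, so p-values measure the spread between these libraries.

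Thyroxine from the blood is converted within tissues to the active hormone triiodothyronine by type 2 deiodinase, and type 3 deiodinase inactivates both hormones. Both enzymes are selenoproteins, so their translation depends on the selenocysteine machinery. In cones, the beta receptor encoded by Thrb promotes the medium-wavelength opsin gene Opn1mw and represses the short-wavelength opsin gene Opn1sw. Retinoid X receptor gamma, a heterodimer partner of nuclear receptors, takes part in the repression of Opn1sw, and Dio3 is known to protect developing cones from excess hormone.

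The windows before the RefSeq start sites of both deiodinase genes are shown because these were the members with a fitted log2 fold change beyond 1 in either direction in any experiment. Each line gives 250 bases in the direction of transcription (GRCm38.p6), in lower case, with TATAAA and the full cAMP response element TGACGTCA in capitals. The Dio2 window lies at chr12:90739039-90739288 on the minus strand, and the Dio3 window at chr12:110278980-110279229 on the plus strand.
Dio2: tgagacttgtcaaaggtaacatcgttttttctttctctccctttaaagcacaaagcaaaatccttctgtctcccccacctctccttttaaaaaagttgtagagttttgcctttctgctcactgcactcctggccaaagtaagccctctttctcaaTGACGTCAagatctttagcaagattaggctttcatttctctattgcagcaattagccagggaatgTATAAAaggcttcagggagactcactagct
Dio3: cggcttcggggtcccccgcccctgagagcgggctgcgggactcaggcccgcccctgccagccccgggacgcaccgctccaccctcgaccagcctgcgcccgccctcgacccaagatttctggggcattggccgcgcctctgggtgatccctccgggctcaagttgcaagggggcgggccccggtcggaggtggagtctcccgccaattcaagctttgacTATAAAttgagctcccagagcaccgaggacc
The Dio2 window held 1 full cAMP response element, starting 95 bases before the start site, which 1.55% of 32841 mouse promoter windows of this length contain on either strand. TATAAA, present in 12.4% of the windows, began 30 bases before the Dio2 start and 31 bases before the Dio3 start. The Dio3 window had a GC content of 69.6% with 21 CpG dinucleotides and 4 matches to GGGCGG, a GC box held by 32.7% of windows, whereas the Dio2 window had 41.6% GC, 2 CpG dinucleotides and no GGGCGG. The median window had 52.4% GC and 6 CpG dinucleotides. These letter matches describe the sequence and are not evidence of factor binding. Of the other members, Thrb and Rxrg have 2 listed start sites each, and Thra was not matched in the promoter table.

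In the build used for counting (NCBIM37), Dio2 spans chr12:91962994-91976878 on the minus strand and Dio3, a gene without introns in this annotation (2030 exonic bases over a locus of 2030 bases), spans chr12:111517278-111519307 on the plus strand. Thra spans chr11:98601952-98630320 (plus), Thrb chr14:18493474-18870602 (plus) and Rxrg chr1:169528515-169569754 (plus). Exonic bases of Thra overlap those of Nr1d1, which encodes REV-ERB alpha on the opposite strand, over 263 bases, and Dio2 shares 100 exonic bases with the opposite-strand transcript Gm16738. Strand use in counting is not given in the sources used here, so reads in these stretches cannot be assigned to one partner. Counts were per gene, and the receptor isoforms of Thra and Thrb were not resolved.

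Total counts ranged from 13732959 to 36354094 in the retina libraries and from 7289460 to 19864491 in the sorted rods. Levels below are CPM (read counts relative to library size) scaled by TMM over all 26 libraries, and levels are compared between genes only per kilobase of exon. A change was called at a Benjamini-Hochberg adjusted p under 0.05 in edgeR's quasi-likelihood test over all genes tested. In sorted rods the summed cone markers were 2275 to 5511 CPM against 1577 to 3230 CPM in the retinas, while rod markers were at 55679 to 90363 CPM. The cone list includes Guca1a, which the study names among rod-specific genes. Cone opsin transcripts were present in the sorted rods, with Opn1sw at 701 to 2164 CPM and Opn1mw at 169 to 403 CPM. DZNep-treated replicate 2 stood apart by its lens markers, at 71.9 CPM summed.

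**Figure D1:**
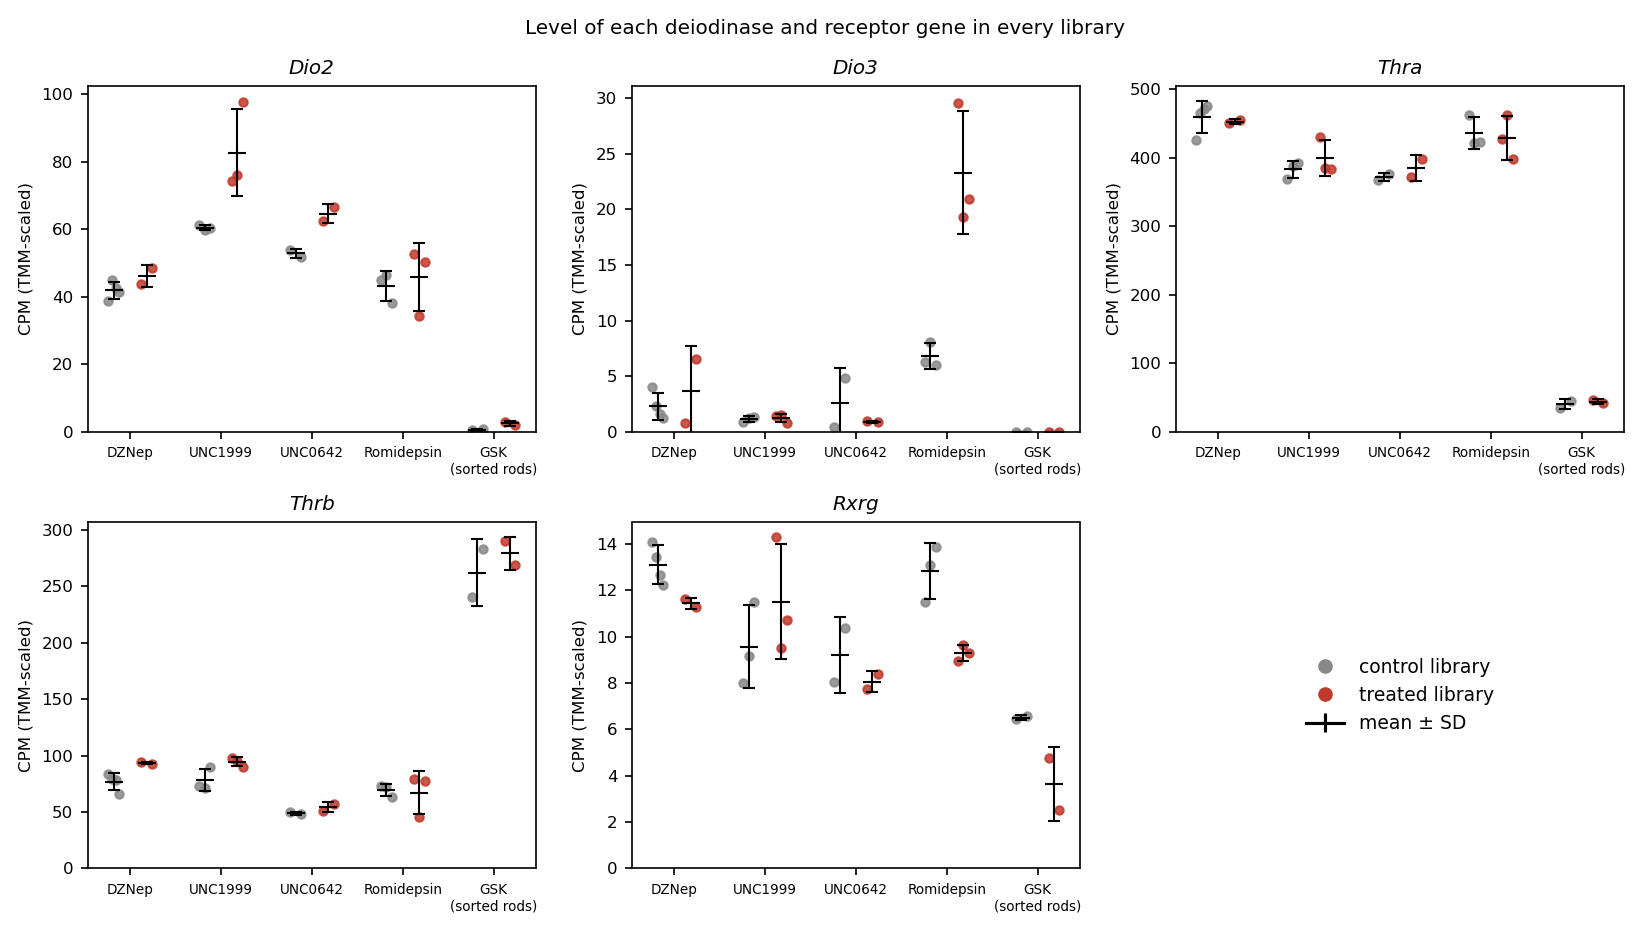
TMM-scaled CPM (linear axes from 0) of each of the 5 genes in the 26 libraries, by experiment, with control libraries in grey, treated libraries in red, and black bars for the mean ± SD, whose lower ends are hidden where they pass below 0. Dio3 in the Romidepsin experiment (5.97 to 8.11 against 19.3 to 29.6 CPM) has its 3 treated libraries above all other libraries of that gene, and Thrb is higher while Thra is lower in all 4 sorted-rod libraries than in any retina.

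Per kilobase, the mean level in the 4 control retina groups was 80.8 to 99.6 CPM for Thra, 7.37 to 11.8 for Thrb, 7.21 to 10.4 for Dio2, 4.00 to 5.71 for Rxrg and 0.560 to 3.34 for Dio3. Thra was thus the highest of the 3 receptor genes among the members, and Thrb and Dio2 covered overlapping ranges below it. In control sorted rods the order per kilobase was Thrb at 39.6 ± 4.51 CPM (SD, n = 2), Thra at 8.74 ± 1.60, Rxrg at 2.83 ± 0.0435 and Dio2 at 0.0986 ± 0.0416. Dio3 had 0 counts in each of the 4 rod libraries, which allows up to 0.402 and 0.186 CPM in the controls and 0.169 and 0.328 CPM in the treated libraries (3 counts per library, counting error only). The rods were prepared by dissociation and, per the methods, with another library kit, so retinas and rods were not tested against each other.

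Dio3, the gene of the hormone-inactivating enzyme, was upregulated by Romidepsin. The Romidepsin controls had 6.28, 8.11 and 5.97 CPM, and the treated retinas had 29.6, 19.3 and 21.0 CPM. Every treated library lay above every control library, as for 13.1% of genes in this direction, and these 3 libraries were the highest of all 26. The fold change was 3.44 (log2 1.78 ± 0.21 SE, 95% interval 1.30 to 2.26, adjusted p = 0.0269), with rank 8 by p among 16049 genes. In this comparison 0.748% of genes were called in either direction, 0.573% in the direction of Dio3, and 0.561% were called with an absolute log2 fold change above 1. The call was lost when control replicate 2 (log2 fold change 1.93, adjusted p = 0.120), control replicate 3 (1.69, 0.112) or treated replicate 3 (1.85, 0.124) was left out, and in each of these fits 0 genes of the genome were called. As in all of these bulk libraries, more cells expressing a gene and more RNA per cell cannot be told apart.

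No other transcript tested at the Dio3 locus was called under Romidepsin. Dio3os, a noncoding RNA transcribed from the opposite strand at chr12:111513594-111516278, had 5.69, 6.34 and 7.35 CPM in the Romidepsin controls and 11.2, 5.00 and 6.25 CPM in the treated retinas. These ranges overlapped, with a log2 fold change of 0.21 (95% interval -0.45 to 0.88, adjusted p = 0.737). Of the Dlk1-Dio3 imprinted locus, 4 of 6 listed transcripts were tested (Meg3, Rian, Mirg and Dio3os), and under Romidepsin 0 were called, with log2 fold changes from -0.38 to 0.21. Dlk1 and Rtl1, the protein-coding genes listed for the locus, were below the count filter.

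In the other retina experiments Dio3 was low and varied by library. DZNep controls had 4.00, 2.31, 1.63 and 1.23 CPM, whereas the treated libraries had 0.766 and 6.53 CPM. The log2 fold change of 0.52 (adjusted p = 0.640) became -1.57 (adjusted p = 0.148) without treated replicate 2, the library with the lens markers. UNC0642 controls were split at 0.425 and 4.80 CPM, and the treated libraries had 0.981 and 0.857 CPM. There the log2 fold change of -1.44 (adjusted p = 0.497) was -2.36 without control replicate 1 (adjusted p = 0.0157) and 1.14 without control replicate 2 (adjusted p = 0.769), so the direction rested on 1 control library. UNC1999 controls had 0.854, 1.22 and 1.34 CPM and treated libraries 1.42, 1.52 and 0.818 CPM, a log2 fold change of 0.11 (95% interval -0.62 to 0.84, adjusted p = 0.866).

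The 3 genes whose levels followed Dio3 most closely over the 22 retinas, after removing each experiment's mean, were Ism2 (Pearson r = 0.859), the tight junction gene Cldn3 (0.845) and the serine protease gene Tmprss11e (0.817), among 17274 genes. UNC0642 control replicate 2, DZNep control replicate 1, DZNep-treated replicate 2 and all Romidepsin libraries were high for Dio3, Ism2 and Tmprss11e alike. Ism2 had 6.87, 10.8 and 8.72 CPM in the Romidepsin controls and 18.1, 13.7 and 20.2 CPM in the treated retinas (log2 fold change 0.98, adjusted p = 0.0656). Tmprss11e had 3.07, 4.21 and 3.32 CPM in the controls and 5.13, 2.29 and 4.33 CPM in the treated retinas (0.15, adjusted p = 0.823), so its groups overlapped where those of Dio3 did not. Cldn3 was higher in every treated than control library without passing the test (1.24, adjusted p = 0.125). A surface epithelium list chosen after the values were seen had 6 of 11 genes tested and 0 called under Romidepsin (4 positive, 2 negative). Its summed level was 78.7 to 96.6 CPM in controls and 137 to 184 CPM in treated retinas, and its part in the Dio3 result was not tested. A fibroblast and leptomeningeal list, chosen in the same way, ran the other way in sum, at 99.8 to 120.4 CPM in controls and 77.1 to 92.4 CPM in treated retinas. Of that list 5 of 7 genes were tested, and Col1a1 was called higher.

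**Figure D2:**
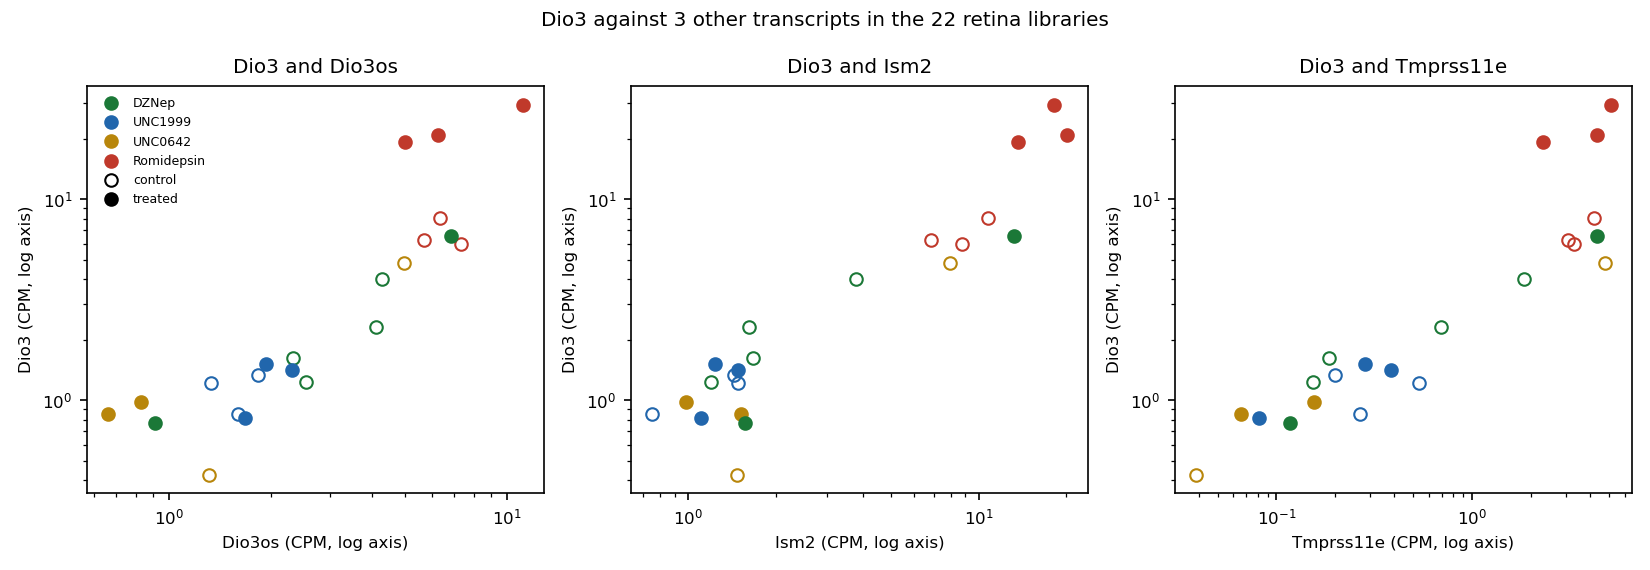
Dio3 CPM against the CPM of its antisense neighbour Dio3os and of 2 of its 3 closest companions, Ism2 and Tmprss11e, in 22 retinas on log axes, with open circles for controls and filled circles for treated libraries, coloured by experiment. The 3 Romidepsin-treated libraries sit above all others on the Dio3 axis (19.3 to 29.6 CPM) while they overlap the Romidepsin controls on the Dio3os and Tmprss11e axes.

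Dio2, whose enzyme makes the active hormone, was close to its controls in 2 retina experiments and lay above them in the other two, where edgeR's quasi-likelihood test was not passed. With UNC1999 the controls had 61.3, 59.7 and 60.4 CPM and the treated retinas 74.4, 76.1 and 97.6 CPM. The groups did not overlap, as for 13.9% of genes in this direction. The log2 fold change was 0.45 ± 0.10 SE (95% interval 0.22 to 0.69) with an adjusted p of 0.0622, where 0.602% of genes were called. Adjusted p was under 0.05 by the likelihood ratio test (0.00394), by DESeq2 (0.00404), without the filter on low counts (0.0313) and with all 22 retinas in one fit (0.0296), and also without control replicate 3 (0.0383). These settings called 1641, 1456, 1024, 1445 and 2707 genes in turn, against 95 with the main settings. It was not under 0.05 with RLE scaling, with at least 10 counts in every library or with the replicate block. Leaving out any other library also gave no call (adjusted p up to 0.250). With UNC0642 the controls had 53.9 and 51.9 CPM and the treated retinas 62.6 and 66.8 CPM, again without overlap (23.1% of genes in this direction), with a log2 fold change of 0.32 (95% interval 0.12 to 0.51, adjusted p = 0.299).

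Dio2 in the DZNep experiment was 38.7 to 44.9 CPM in the 4 controls, with 43.9 and 48.5 CPM in the treated libraries (log2 fold change 0.13, adjusted p = 0.225). Romidepsin controls had 45.0, 46.6 and 38.3 CPM, and the treated libraries 52.8, 34.3 and 50.4 CPM (0.09, adjusted p = 0.825). Both pairs of ranges overlapped. The sorted rods had almost no Dio2 transcript, with 3 and 12 counts in the controls and 54 and 18 counts after GSK. These correspond to 0.402 and 0.744 CPM against 3.04 and 1.97 CPM, and the ratio of the summed, depth-scaled counts was 4.21 (95% Poisson interval 2.39 to 7.90, counting error only). The fitted log2 fold change of 2.00 had a wide interval over libraries (0.19 to 3.81) and an adjusted p of 0.987, in a comparison in which edgeR's quasi-likelihood test called 0 of 14478 genes (0%), 711 (4.91%) had an unadjusted p under 0.05, the likelihood ratio test called 71 and DESeq2 called 48. Both treated values lay above both controls, as for 21.5% of genes.

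The closest companion of Dio2 was Lss, the lanosterol synthase gene of cholesterol synthesis (r = 0.936 over 22 retinas), followed by Gm12750 (0.828) and Zbtb49 (0.817). Lss had 62.4, 61.2 and 63.4 CPM in the UNC1999 controls and 80.5, 87.2 and 97.6 CPM in the treated retinas, a called rise (log2 fold change 0.51, adjusted p = 0.0408). Under DZNep, Lss was also called higher (0.25, adjusted p = 0.0137). The correlation kept the differences between treated and control libraries, so these calls are not independent of the choice of Lss. Among the members, Dio2 was most like Thrb (r = 0.711), and the other pairs of members had r between -0.106 and 0.304. Romidepsin-treated replicate 2 was the lowest library of its group for Dio2 (34.3 CPM), Lss (43.7) and Thrb (45.2). How far r rests on this library was not tested.

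Thrb was called higher under DZNep, by a small amount. It was the 1 call among 5 members, which is near the share called over all genes in this comparison. Controls had 83.3, 78.9, 78.6 and 65.9 CPM, and the treated retinas had 93.9 and 92.6 CPM. Both treated libraries lay above all controls, as in 24.5% of genes. The log2 fold change was 0.28 ± 0.08 SE (95% interval 0.09 to 0.47, adjusted p = 0.0404), in a comparison that called 22.7% of 16477 genes, and 12.9% of the genes in this direction. The call was lost without control replicate 2 (adjusted p = 0.0732), control replicate 3 (0.0751), treated replicate 1 (0.196) or treated replicate 2 (0.121), and with all 22 retinas in one fit (0.281). Rod markers moved with this result: 13 of 13 were called higher under DZNep, and their summed level was 19105 to 31899 CPM in controls against 58235 to 59936 CPM in treated retinas. Their part in the Thrb result was not tested.

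UNC1999 gave a similar size of difference for Thrb, from 73.3, 71.7 and 89.6 CPM in controls to 98.1, 95.0 and 90.2 CPM in treated retinas (log2 fold change 0.27, 95% interval 0.06 to 0.49, adjusted p = 0.131). Without control replicate 3, the highest control, the value was 0.39 with an adjusted p of 0.00736, in a fit that called 2707 genes. Rod markers were positive in 13 of 13 cases there with 0 called (median log2 fold change 0.95 against -0.0020 for all genes), and summed to 21073 to 39672 CPM in controls and 53691 to 72690 CPM in treated retinas, with their part not tested. UNC0642 controls had 49.6 and 48.0 CPM and treated libraries 51.0 and 57.4 CPM (0.18, adjusted p = 0.400). Romidepsin controls had 73.0, 72.4 and 63.7 CPM, and the treated libraries had 79.0, 45.2 and 77.4 CPM (-0.05, adjusted p = 0.925).

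In sorted rods Thrb was at 241 and 283 CPM in the controls and 290.0 and 269 CPM after GSK (log2 fold change 0.02, 95% interval -0.41 to 0.46, adjusted p = 0.998). Each of these 4 values was above the highest retina library, at 98.1 CPM. The genes most like Thrb were Sp4, a transcription factor gene (r = 0.919), Sntb2, which encodes a syntrophin (0.914), and Zswim6 (0.905). All 3 were, like Thrb, lowest of their group in Romidepsin-treated replicate 2 (30.7, 10.4 and 21.0 CPM). Sp4 was called higher under DZNep (log2 fold change 0.73, adjusted p = 0.00149) and UNC1999 (0.52, adjusted p = 0.0428), as was Sntb2 (0.94, adjusted p = 0.00118, and 0.88, adjusted p = 0.0471). These calls are not independent of the choice of both genes, because the correlation kept the differences between treated and control libraries.

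Thra, which encodes the alpha receptor, was not called in any comparison. Its level was 368 to 476 CPM in the 22 retinas and 35.1 to 46.9 CPM in the sorted rods. Log2 fold changes were -0.02 for DZNep (95% interval -0.15 to 0.11), 0.06 for UNC1999 (-0.10 to 0.23), 0.08 for UNC0642 (-0.11 to 0.26), -0.02 for Romidepsin (-0.28 to 0.24) and 0.06 for GSK (-0.48 to 0.61). Treated and control ranges overlapped in each experiment. The neighbouring gene Nr1d1, a component of the circadian clock that overlaps Thra, was called lower under DZNep (log2 fold change -0.25, adjusted p = 0.0119), a call lost without treated replicate 1 (0.116) or treated replicate 2 (0.0528). There it had 343, 343, 324 and 363 CPM in controls and 283 and 292 CPM in treated retinas. These ranges did not overlap, as for 21.3% of genes in this direction, and the comparison called 22.7% of genes. Thra in the same libraries had 426, 465, 472 and 476 CPM against 451 and 455 CPM. Among the genes most like Thra were the neuronal genes Nrgn (r = 0.847) and Kcnab3 (0.843), and neither was called in any comparison it was tested in.

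Rxrg, a cone-enriched heterodimer partner of the receptors, was not called in any comparison, and its low values fell on the treated side for Romidepsin and DZNep. Romidepsin controls had 11.5, 13.1 and 13.9 CPM and treated retinas 8.95, 9.63 and 9.28 CPM. The groups did not overlap, as for 12.8% of genes in this direction, and the log2 fold change was -0.46 (95% interval -0.80 to -0.13, adjusted p = 0.137). With all 22 retinas in one fit the adjusted p was 0.0463, where 2987 genes were called against 120 with the main settings. DZNep controls had 14.1, 13.4, 12.7 and 12.2 CPM, and the treated libraries had 11.6 and 11.3 CPM, below all controls as for 21.3% of genes (-0.20, adjusted p = 0.160). UNC1999 controls had 8.00, 9.16 and 11.5 CPM against 14.3, 9.53 and 10.7 CPM (0.26, adjusted p = 0.445), and UNC0642 controls had 8.04 and 10.4 CPM against 7.75 and 8.37 CPM (-0.16, adjusted p = 0.679). Sorted rods had 6.44 and 6.58 CPM in controls and 4.78 and 2.52 CPM after GSK (-0.88, 95% interval -1.99 to 0.23, adjusted p = 0.987), without overlap as for 12.2% of genes in this direction.

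Marker lists of other cell types are given beside the Rxrg values. Under Romidepsin 9 of 11 cone markers and 10 of 12 retinal pigment epithelium markers were negative with 0 called, and the summed cone markers were 1847 to 2457 CPM in controls and 1577 to 2081 CPM in treated retinas. The summed pigment epithelium markers were 824 to 967 CPM and 582 to 728 CPM. Also under Romidepsin, all tested markers of Müller glia (9), bipolar (7), amacrine and horizontal (6), ganglion (7) and microglial (10) cells were negative. Rod markers were positive there in 13 of 13 cases, and astrocyte and gliosis markers in 4 of 6. Under DZNep all tested markers of Müller glia (9), bipolar (7), amacrine and horizontal (6), ganglion (7), microglial (10) and vascular (6) cells were negative. Cone markers were negative there in 8 of 11 cases, and astrocyte and gliosis markers in 5 of 6. Rod markers (13 of 13) and pigment epithelium markers (11 of 12) were positive. In sorted rods 11 of 11 cone markers were negative after GSK, with a median log2 fold change of -0.92 against -0.0093 for all genes and 0 called. All tested bipolar (7) and microglial (7) markers were negative there as well. Müller glia (7 of 9), amacrine and horizontal (4 of 4) and vascular (5 of 5) markers were positive. The part of these cells in the Rxrg values was not tested. The 3 genes most like Rxrg were Rrh (r = 0.813) and Rlbp1 (0.807), genes of the pigment epithelium and Müller glia, and Crispld1 (0.797).

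**Figure D3:**
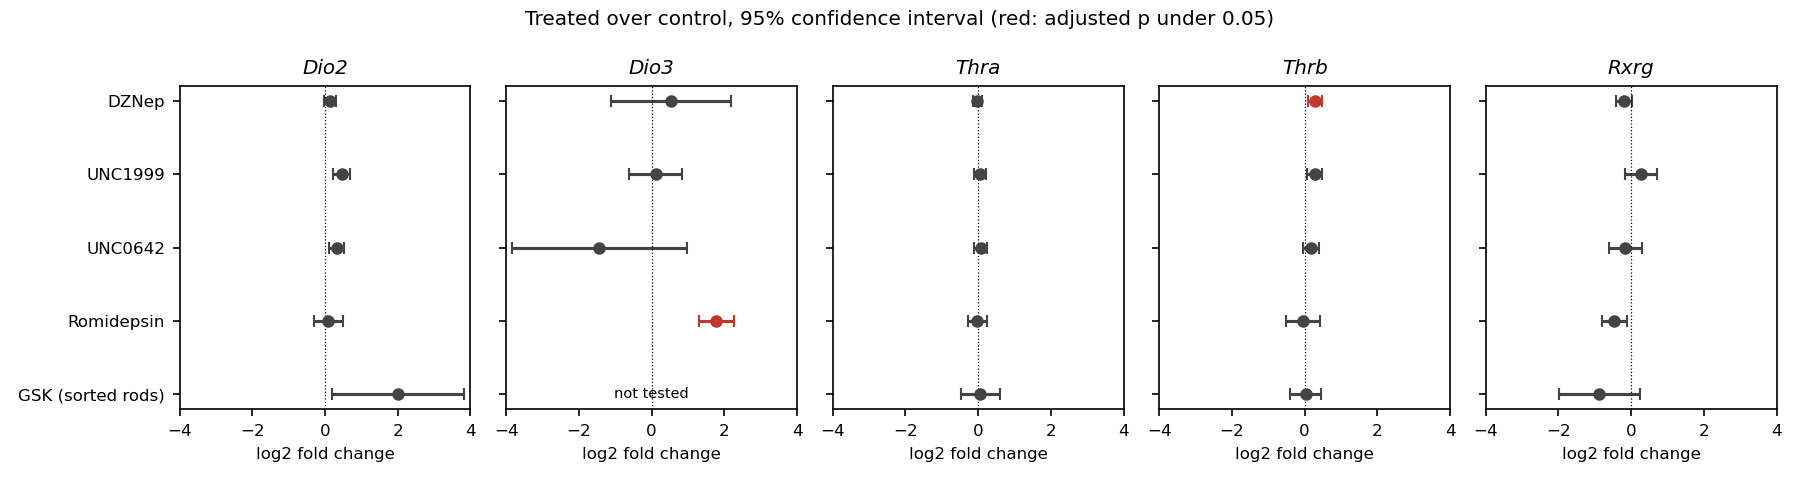
Log2 fold change of treated over control libraries with its 95% confidence interval for the 5 genes (panels) in the 5 experiments (rows), from edgeR's quasi-likelihood test, in red where the adjusted p was under 0.05. Dio3 under Romidepsin (1.78) and Thrb under DZNep (0.28) are red, Thra intervals are narrow around 0 in the retinas, and Dio3 in sorted rods had no counts to test.

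The effects of the treatments on the members were then compared between retina experiments, each against its own controls, in 6 contrasts over the 22 retinas. No member passed the test in any of these contrasts by edgeR's quasi-likelihood test, where the share of 17274 genes called was 0.00579% for DZNep less UNC1999, 0.0232% for DZNep less UNC0642, 0.289% for DZNep less Romidepsin, 0.0116% for UNC1999 less UNC0642, 5.11% for UNC1999 less Romidepsin and 0.0174% for UNC0642 less Romidepsin. The smallest adjusted p belonged to Rxrg in UNC1999 less Romidepsin, with a difference of 0.72 on the log2 scale (95% interval 0.27 to 1.17, adjusted p = 0.0576). It passed under the likelihood ratio test (0.0334), with at least 10 counts in every library (0.0471), without UNC1999 control replicate 3 (0.0150) and without UNC1999 treated replicate 2 (0.0398). The Dio3 effect of UNC0642 less that of Romidepsin was -3.21 (95% interval -5.45 to -0.96, adjusted p = 0.215), and it was -0.64 without UNC0642 control replicate 2. It was therefore not shown that Romidepsin acted on Dio3 differently from the other inhibitors.

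The opsin genes that these receptors regulate were not called in any experiment by edgeR's quasi-likelihood test with all libraries, and other settings called some of them. Opn1mw had 231, 172 and 224 CPM in the Romidepsin controls and 150.1, 72.1 and 83.3 CPM in the treated retinas. The groups did not overlap, as for 12.8% of genes in this direction (log2 fold change -1.03, 95% interval -1.63 to -0.44, adjusted p = 0.0873). The adjusted p was 0.00669 by the likelihood ratio test, 0.00374 by DESeq2, 0.0229 without the count filter, 0.00757 with all 22 retinas in one fit and 0.0181 without treated replicate 1. These settings called 1185, 1074, 670, 2987 and 508 genes in turn, against 120 with the main settings. Under UNC0642, Opn1sw had a log2 fold change of -1.19 and Opn1mw of -0.61 (adjusted p = 0.224 for both), and both were lower in both treated libraries, as 28.9% of genes were. In this comparison edgeR's quasi-likelihood test called 0 of 16321 genes (0%) while 2407 (14.7%) had an unadjusted p under 0.05, the likelihood ratio test called 145 and DESeq2 called 172. Both opsins were called lower under UNC0642 by the likelihood ratio test (adjusted p = 8.23e-08 for Opn1sw and 9.78e-05 for Opn1mw) and by DESeq2 (8.75e-10 and 3.54e-05). In sorted rods Opn1sw had 1077 and 2164 CPM in controls and 1019 and 701 CPM after GSK (log2 fold change -0.97, adjusted p = 0.975). It was called without the count filter (0.00420, where 186 genes were called) but not by the likelihood ratio test (0.328) or DESeq2 (0.302). Opn1mw there had 216 and 403 CPM against 256 and 169 CPM (-0.60, adjusted p = 0.987). With UNC1999 both opsins were called higher without control replicate 3 (Opn1mw 0.91, adjusted p = 0.00475, and Opn1sw 1.33, adjusted p = 0.0212), against 0.52 and 0.69 with all libraries. That fit called 2707 genes. With DZNep, Opn1mw was called lower without control replicate 1 (-0.19, adjusted p = 0.0182, where 4537 genes were called), against -0.15 with all libraries. The cone marker list, which includes both opsins, was negative for 9 of 11 genes under Romidepsin (median log2 fold change -0.72). It was negative for 8 of 11 under UNC0642 (-0.27), 11 of 11 under GSK (-0.92) and 8 of 11 under DZNep (-0.15). With UNC1999, 9 of 11 were positive (0.31). The part of cone transcripts as a whole in the opsin values was not tested.

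Among genes of hormone transport and binding, Slco4a1, which encodes an organic anion transporter that can carry thyroid hormones, was called higher in 3 retina experiments. Its DZNep controls had 84.6, 73.3, 78.0 and 58.2 CPM against 167 and 163 CPM in treated retinas (log2 fold change 1.17, adjusted p = 0.000741). Romidepsin controls had 56.8, 52.6 and 67.8 CPM against 106, 122 and 128 CPM (1.01, adjusted p = 0.0277), and UNC1999 controls had 107, 86.6 and 118 CPM against 186, 166 and 165 CPM (0.74, adjusted p = 0.0433). The groups did not overlap in any of the 3. Treated libraries all lay above controls for 24.5% of genes under DZNep, 13.1% under Romidepsin and 13.9% with UNC1999. These comparisons called 22.7%, 0.748% and 0.602% of genes in turn. The UNC1999 call was lost without control replicate 1 (adjusted p = 0.169), control replicate 2 (0.103), treated replicate 1 (0.107), treated replicate 2 (0.111) or treated replicate 3 (0.157). The Romidepsin call was lost without control replicate 1 (0.0549), control replicate 2 (0.120), control replicate 3 (0.112) or treated replicate 3 (0.124). In the sorted rods Slco4a1 was above every retina, at 572 and 559 CPM in controls and 814 and 786 CPM after GSK. These groups did not overlap, as for 21.5% of genes in this direction, and the gene was not called there. Rod markers were positive in 13 of 13 cases in the 3 retina experiments, whereas 6 were positive and 7 negative in sorted rods. Their part in the Slco4a1 values was not tested.

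All other pathway calls but 1 were in the DZNep comparison, which called 22.7% of all genes (12.9% higher), against 0.602% with UNC1999, 0.748% with Romidepsin and 0% with UNC0642 and GSK. Counts such as 1 of 6 corepressor genes or 1 of 4 deiodinase turnover genes lie near the share over all genes. Other lists had larger shares, such as cone opsin regulators (7 of 11 higher) and hormone-responsive genes (2 higher and 3 lower of 7). Transport and binding genes (2 higher and 2 lower of 8) also did. The lists were chosen with earlier results of these data known. Of 8 transport and binding genes tested, Slco4a1 and Slc7a5 rose, and Slc7a8, which like Slc7a5 encodes an amino acid transporter able to carry thyroid hormones, and Crym, whose product binds triiodothyronine, fell (log2 fold change -0.32 and -0.43). Rxra rose (0.46) while Rxrb, the other retinoid X receptor gene, had 0.02. Of 6 corepressor genes Gps2 was called higher (0.30), and of 6 coactivator genes Ncoa1 and Ncoa2 were called higher. Usp33, which encodes a deubiquitinase acting on type 2 deiodinase, rose (0.68), as did Sephs2 (0.30) and Pstk (0.43) of selenocysteine synthesis, and the other 3 genes of each list were not called.

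Genes known to respond to the hormone were called in both directions under DZNep. Me1 (0.40) and Klf9 (0.22) rose, Hr (-0.45), Thrsp (-0.35) and Rcan2 (-0.35) fell, and the median over the 7 genes was -0.20 against -0.0006 over all genes. Of 11 cone opsin regulators 7 rose (Nrl 1.40, Nr2e3 1.23, Crx 0.89, Rorb 0.48, Neurod1 0.42, Rora 0.37 and Otx2 0.27), of which Nrl and Nr2e3 are also on the rod marker list and Otx2 on the pigment epithelium list. Of the imprinted locus, the noncoding RNAs Mirg (-0.71) and Rian (-0.47) fell, and Dio3os had 0.06.

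Of the 25 pathway calls under DZNep, 10 were kept with each library left out in turn (Slco4a1, Ncoa1, Ncoa2, Usp33, Hr, Crx, Nrl, Nr2e3, Rorb and Rora). Among these 10, Ncoa1, Ncoa2 and Rora were not called in another of the alternatives (adjusted p up to 0.162, 0.116 and 0.339). The remaining 15 of the 25 calls were lost without treated replicate 1. Without that library the log2 fold change was 0.12 for Slc7a5 and for Klf9, -0.22 for Thrsp and 0.17 for Otx2. Slc7a5 (without control replicate 2), Klf9 (control replicate 3), Thrsp (control replicates 2 and 3), Crym and Rcan2 (treated replicate 2) and Mirg (control replicates 2, 3 and 4 and treated replicate 2) were also lost without another library, with adjusted p from 0.0512 to 0.0995.

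Outside the DZNep comparison, the lists gave 3 calls: Slco4a1 under UNC1999 and Romidepsin, and Ttr, the gene of the plasma thyroxine carrier transthyretin, under UNC1999 (log2 fold change 1.40, adjusted p = 0.000893). Ttr is also a pigment epithelium marker, and 6 of 12 markers of that list rose with UNC1999, their sum being 657 to 902 CPM in controls and 1108 to 1304 CPM in treated retinas, with their part not tested. Under UNC0642 and GSK 0 list genes were called.

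**Figure D4:**
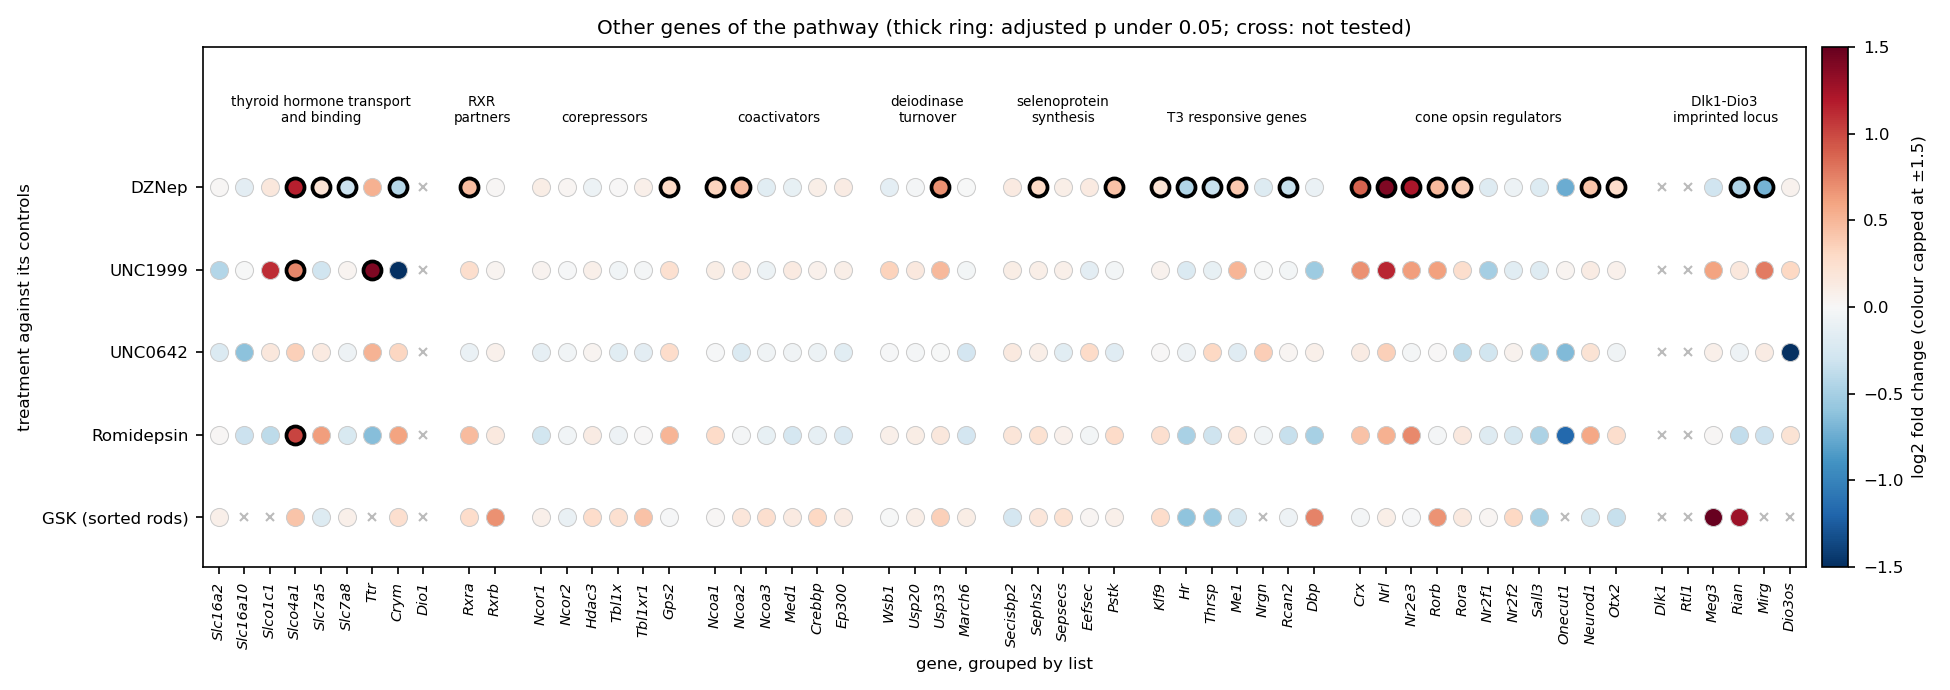
Log2 fold change (colour, capped at 1.5 in either direction) of the pathway list genes (columns, by list) under each treatment (rows), with thick rings where the adjusted p was under 0.05 and crosses where a gene was not tested. Nearly all ringed genes are in the DZNep row, and Slco4a1 is ringed in the DZNep, UNC1999 and Romidepsin rows (1.17, 0.74 and 1.01).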

How the data were processed

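RNA-seq of 22 rd10 retinas and 4 sorted-rod samples was analysed from the deposited table of read counts per Ensembl gene. According to the authors, reads were trimmed, aligned to NCBIM37 (mm9) with HISAT2 2.2.1 and counted with HTSeq 0.11.2, the versions being those of the submitters' processing notes. Strand use in counting is not given in the sources used here. The labels name a stranded poly(A) kit for all libraries, whereas the methods name a SMART-Seq kit for the rods. Groups were taken from sample titles. Of 37991 genes, 37205 had a symbol in the NCBIM37 annotation.

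Each treatment was compared with its own controls in edgeR 4.0.16 (R 4.3.3): filterByExpr, TMM, quasi-likelihood F test, Benjamini-Hochberg adjustment over all genes tested. The quasi-likelihood test was planned as the main test and the likelihood ratio test used by the authors as an alternative, together with DESeq2 1.42.0, RLE scaling, other count filters, a replicate block, one fit of all retinas, and each library left out. Standard errors and 95% intervals were derived from the F statistic. The 6 differences between treatment effects used one fit of the 22 retinas. Likeness was Pearson's r of log2 CPM (prior count 2), centred by experiment, and given without p. Differences between treated and control libraries stayed in r, so tests of the companion genes are not independent of their choice. The script was tested on simulated data.

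The 5 members and the lists were chosen with earlier results of these data known, so their p-values are not independent evidence. Genes named are the members, pathway list genes called in a comparison, overlapping or antisense genes, both cone opsins and the 3 genes most like each member, of which 1 is not reported here. The surface epithelium and fibroblast lists, Col1a1 and the pathway genes named without a call were chosen after values were seen. Intervals and floors of counts cover counting error only. Replicate libraries differed by more than sampling noise in all 23 pairs. Promoter windows came from RefSeq (GRCm38.p6) and were not joined to NCBIM37 coordinates. Protein sequences were not used here.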

Additional observations from a re-analysis of the deposited data

Results flagged for a closer look

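Over the 9 tests of a single library standing apart among the 4 DZNep controls, 1 for each member, overlapping gene and opsin, no library was singled out. Among 54 tests of a difference between treatment effects, 2 passed in edgeR's quasi-likelihood test, both for genes linked to the members. Both were in UNC1999 less Romidepsin, which called 5.11% of 17274 genes, against 0.00579% to 0.289% in the other contrasts. By their library names, the UNC1999 libraries form another series than the other retina libraries. Cone markers were positive for 9 of 11 genes with UNC1999 and negative for 9 of 11 under Romidepsin. The part of series and of cone transcripts was not tested. For Opn1mw, the effect of UNC1999 less that of Romidepsin was 1.56 on the log2 scale (adjusted p = 0.0137), and the call was kept in every fit that left out 1 of the 22 libraries and in the alternatives for test, scaling and filter. For Nr1d1, which overlaps Thra, the same difference was 0.37 (adjusted p = 0.0340), and it was lost without Romidepsin control replicate 1 (adjusted p = 0.0715) or replicate 3 (0.0680), Romidepsin treated replicate 3 (0.0650), UNC1999 control replicate 1 (0.112) or UNC1999 treated replicate 1 (0.0939).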

How the results depend on the processing

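Dio3 under Romidepsin was called in every alternative with all libraries (log2 fold change 1.58 to 1.93 over all alternatives), while the number of members called moved elsewhere. Under DZNep it went from 1 (Thrb) to 0 with the replicate block and with all 22 retinas in one fit, and was 0 to 1 with a library left out. Under UNC1999 it went from 0 to 1 (Dio2) by the likelihood ratio test, by DESeq2, without the count filter and with all 22 retinas, and was 0 to 2 with a library left out. Under Romidepsin it went from 1 to 2 (Dio3 and Rxrg) with all 22 retinas, and was 0 to 1 with a library left out. It was 0 to 1 under UNC0642 with a library left out. For the differences between effects it was 1 (Rxrg) by the likelihood ratio test and with at least 10 counts per library, and 0 to 1 with a library left out. The cause was not tested. Where a fit left 1 library in a group, that library was assumed to vary like the others.

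Replicate numbers did not pair the libraries (correlation of deviations -0.28 to 0.231), so the block is only an alternative. With the replicate block, log2 fold changes under DZNep turned to -0.34 for Dio3, 0.0214 for Thra and -0.64 for Dio3os, and Thrb had 0.20 (adjusted p = 0.145); Slco4a1 under UNC1999 had an adjusted p of 0.0527 and Dio3 under Romidepsin stayed called.

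Leaving out 1 library also turned directions. Under DZNep the ranges were -1.57 to 1.52 for Dio3, -1.85 to 1.05 for Dio3os and -0.18 to 0.0373 for Opn1sw. Under UNC0642 they were -2.36 to 1.14 for Dio3 and -0.35 to 0.0411 for Rxrg, and under UNC1999 -0.0649 to 0.37 for Dio3. Under Romidepsin they were -0.023 to 0.26 for Dio2, -0.19 to 0.43 for Dio3os, -0.072 to 0.0367 for Thra and -0.18 to 0.17 for Thrb. In rods they were -0.0769 to 0.22 for Thra, -0.0529 to 0.10 for Thrb and -0.0127 to 0.38 for Nr1d1.

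Genes called over the genome depended on the test. Against 3734 under DZNep there were 933 with the block, 1333 with all 22 retinas and 1082 to 4537 with a library left out. Against 95 under UNC1999 there were 1641 by the likelihood ratio test, 1456 by DESeq2, 1024 without the filter, 1445 with all 22 retinas, 30 with the block and 4 to 2707 with a library left out. Against 120 under Romidepsin there were 1185, 1074, 670 and 2987 in the first 4 of these settings and 0 to 508 with a library left out. Against 0 under UNC0642 there were 145, 172, 1052 and 5, with 589 under the block and 0 to 148 with a library left out. Against 0 in rods there were 71 by the likelihood ratio test, 48 by DESeq2, 186 without the filter, 3 with the block and 0 to 210 with a library left out. No value came from DESeq2 for Dio3, Dio3os and Rxrg under UNC0642 (adjusted p not given by the tool), nor for Dio2 in rods with at least 10 counts per library. Low counts limit Dio3 in most retinas and Dio2 in rods.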
